A study of Mus musculus with 4 samples.

Results

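The cytosolic ribosomal protein genes are the nuclear genes for the proteins of the 40S and 60S subunits of the ribosome. They were chosen by symbol: Rps or Rpl followed by a number, with an optional a, x or y, together with Rplp0, Rplp1, Rplp2 and Rpsa. The rule took 76 of the 56941 features of the count tables, 30 for the 40S subunit and 46 for the 60S subunit. The rule itself reads symbols and no measured value, but it was set with earlier results of these data known. It leaves out ribosomal and ribosome-bound proteins with symbols of another form, such as Rps3a1, Fau and Rack1, whose values are given last.

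The libraries were single-cell 3′ RNA counts of mouse bone marrow cells, 1 library for each of 4 groups. The groups were MLL-AF9 leukaemia cells labelled Rbm5 knockout (KO MLL-AF9), MLL-AF9 leukaemia cells labelled wild type (WT MLL-AF9), normal c-Kit+ marrow cells labelled knockout (KO c-Kit+) and normal c-Kit+ marrow cells labelled wild type (WT c-Kit+). The leukaemia cells were taken at one endpoint after a primary transplant, and MLL-AF9 is the fusion of a histone methyltransferase and a transcription elongation factor that drives acute myeloid leukaemia. The labels give no strain, age, Cre driver or deleted part of Rbm5, an RNA-binding splicing regulator. With 1 library per group there is no replicate check and no test: each value describes these libraries, and every interval is an exact 95% interval for counting error only.

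A ribosome carries one copy of nearly every one of these proteins, so their mRNAs are among the most abundant in growing cells and are made and translated together. Their mRNAs start with a C followed by a run of pyrimidines, the 5′ terminal oligopyrimidine (TOP) motif, through which Larp1 and the mTORC1 kinase control their translation. In the neutrophil lineage, growth and ribosome synthesis are high in the progenitors that make primary granules (Elane, Mpo) and are shut down as cells mature and fill secondary granules (Ltf, Camp).

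The annotated start sites were searched for a pyrimidine run, which the rule did not use. The search is looser than the TOP motif, since the run need not begin at the start. RefSeq promoters (GRCm38.p6) matched 56 of the 76 members. A C followed by at least 4 further C or T letters on the transcript strand, within 20 bases of the annotated start, was present in 44 of the 56 (78.6%), against 49.9% of 27025 promoters of all genes. The ETS motif CCGGAAG, searched on both strands of the 300-base promoter, was present in 23 members (41.1%) and 9.93% of all promoters. The E-box CACGTG, which reads the same on both strands and is the core bound by MYC, was present in 6 members (Rpl13a, Rpl14, Rpl19, Rpl23, Rpl34 and Rps19; 10.7%) and 8.09% of all promoters. A match is a description of letters in this window and not a site. Rpl24, the only member past 1.3-fold higher in KO than in WT leukaemia, had no run within 20 bases of its start. The 30 bases around the start are shown for some of the members named below that have a run. They are written from 5′ to 3′ on the transcript strand, with the pyrimidine run in capitals.
Rps9, chr7:3704026-3704055, plus strand: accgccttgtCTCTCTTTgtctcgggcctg
Rps27, chr3:90213634-90213663, minus strand: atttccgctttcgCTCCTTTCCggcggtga
Rps2, chr17:24720048-24720077, plus strand: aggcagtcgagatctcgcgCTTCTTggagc
Rpl39, chrX:37085208-37085237, minus strand: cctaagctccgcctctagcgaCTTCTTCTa
Rps24, chr14:24490663-24490692, plus strand: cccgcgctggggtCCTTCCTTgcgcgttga
Rpl12, chr2:32961697-32961726, plus strand: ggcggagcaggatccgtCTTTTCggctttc
Rps24, the most abundant member, and Rps9 and Rps27, which took a growing part of the ribosomal protein mRNA in mature neutrophils, each have the run at the start itself. Rpl39, the member furthest below WT in the KO leukaemia library, and Rps2, the member furthest below c-Kit+ in leukaemia, have theirs downstream of the annotated start. These members were picked for their levels and ratios. Whether the position of a run goes with either was not tested.

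The 4 libraries held 11778, 13177, 13708 and 12948 cells after filtering, in the order KO MLL-AF9, WT MLL-AF9, KO c-Kit+ and WT c-Kit+, with 93004538 to 101255178 unique molecular identifiers (UMIs, each 1 captured transcript) per library. Median UMIs per cell were 7420.5, 5946, 5428.5 and 5352. The libraries shared 44 to 69 cell barcodes per pair. Rbm5 mRNA was present at 115.5, 160.5, 89.6 and 75.5 counts per 1000000 UMIs (CPM), so the genotype labels could not be checked against it: a 3′ tag may lie outside the deleted part. A Kit UMI was found in 16.7%, 26.1%, 18.1% and 17.3% of cells, and in 3.25% to 5.45% of the cells carrying late neutrophil markers, which serve as the background. The c-Kit+ libraries also held many mature neutrophils, B cells and erythroid cells, so whole-library values mix cell types in different proportions, and fewer cells of a type and less mRNA per cell cannot be told apart in them.

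All 76 members were well counted. The lowest UMI sum of a member in a library was 11046, the mean level over the 4 libraries ran between 158 CPM for Rpl13a and 3112 CPM for Rps24, and every member passed the level filter of 5 CPM that the comparisons used. CPM of 3′ tags counts transcripts and needs no division by length. The 6 most abundant members were Rps24, Rpl23, Rps12, Rps27a, Rplp1 and Rps4x, which together made 13.3% to 16.5% of the ribosomal protein UMIs. Rps24, a 40S protein mutated in human Diamond-Blackfan anaemia, had 2554 CPM in KO MLL-AF9, 2859 in WT MLL-AF9, 3569.8 in KO c-Kit+ and 3464 in WT c-Kit+. Rpl23, a 60S protein, had 2298, 2572, 3581 and 3263 CPM in the same order. Rps12 had 2021, 2386, 3428 and 3139.7 CPM. Both leukaemia libraries lay below both c-Kit+ libraries for all 3. The other 22 members outside the naming rule had mean levels between 502 and 2481 CPM. Many members have processed pseudogenes: of the last 500 transcript bases, 25 members share over 50% of their 90-base stretches with other genes, 54 share at least 1, and 17 overlap another annotated gene, 5 of them on the same strand. The 319 pseudogene features, those with a member's symbol followed by -ps, carried 0.339% to 0.385% of the UMIs of members and these features together. Genes with other names that share 3′ stretches with a member are outside this value.

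Summed over whole libraries, ribosomal protein mRNA made up a smaller part of the UMIs in leukaemia, and least in the KO leukaemia library. Members held 9.17% of UMIs in KO MLL-AF9 (9.16 to 9.18), 10.96% in WT MLL-AF9 (10.95 to 10.96), 12.79% in KO c-Kit+ (12.78 to 12.79) and 11.71% in WT c-Kit+ (11.70 to 11.72). The ratio of KO to WT was 0.837 (0.836 to 0.838) in MLL-AF9 and 1.09 (1.09 to 1.09) in c-Kit+ cells. The ratio of MLL-AF9 to c-Kit+ was 0.717 in KO and 0.936 in WT, where the direction was the opposite one with cells thinned to 2000 UMIs (log2 ratio 0.16 in place of −0.10) and as a mean of the cells' own shares (0.09). The 40S genes made 47.0%, 45.5%, 48.2% and 48.3% of the members' UMIs in the order above. Counted per cell, the median share was 6.63%, 8.70%, 5.86% and 4.65%, an order in which the leukaemia libraries lie above the c-Kit+ libraries.

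Cells were then assigned to ranges of maturation by marker genes. A cell was placed in the primary granule range when Elane, Mpo, Prtn3, Ctsg and Ms4a3 passed a level and a number of detected markers, in the secondary granule range by Ltf, Camp, Ngp, Lcn2 and Cd177, and in the late neutrophil range by Cxcr2, Il1r2, Msrb1, Retnlg and Mmp9. A range is a cut on a continuum and not a cell type: 24.5% to 32.8% of cells lay within 20% of a cut. Cells past the primary granule or the cycling cut were left out of the late range. Cells past the secondary granule or the late cut were left out of the primary granule range. No marker is a ribosomal protein gene. The interval of a share in a range with 50 or more cells was at most 0.311 percentage points wide.

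**Figure D1:**
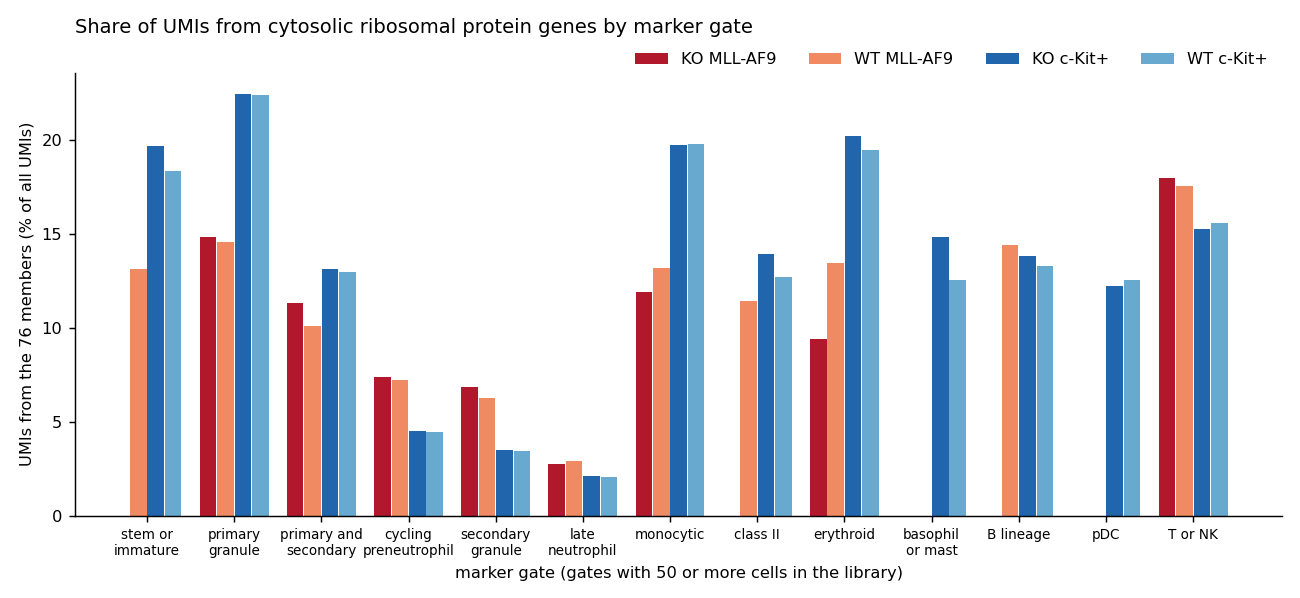
Share of UMIs from the 76 ribosomal protein genes (percent of all UMIs, y axis) in each marker-defined range of cells (x axis) for the 4 libraries, 1 bar per library and range with 50 or more cells. In every library the share is higher in primary than in secondary granule cells, and it is lowest in late neutrophils, at 2.78% in KO MLL-AF9, 2.93% in WT MLL-AF9, 2.10% in KO c-Kit+ and 2.04% in WT c-Kit+.

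Ribosomal protein mRNA was lower at each step of neutrophil maturation in all 4 libraries, and so was every single member. In KO MLL-AF9 the share was 14.8% in primary granule cells, 11.3% in cells with both granule sets, 6.83% in secondary granule cells and 2.78% in late neutrophils. In WT MLL-AF9 the same ranges held 14.6%, 10.1%, 6.26% and 2.93%. In KO c-Kit+ they held 22.5%, 13.2%, 3.51% and 2.10%, and in WT c-Kit+ 22.4%, 12.97%, 3.47% and 2.04%. All 76 members had a lower CPM at each of the 3 steps in each library. The c-Kit+ series begins higher and ends lower than the leukaemia series, with the crossing between cells of both granule sets and secondary granule cells. The secondary granule range holds no cells with cycling markers. Cells with secondary granule, preneutrophil and cycling markers (cycling preneutrophils) were kept apart. Their share was 7.37%, 7.22%, 4.53% and 4.47% (KO MLL-AF9, WT MLL-AF9, KO c-Kit+, WT c-Kit+). The share was thus already below that of cells with both granule sets while cycling markers were present. The number of ribosomal protein UMIs in the median cell was 1746, 1486, 2686.5 and 2297 in primary granule cells (KO MLL-AF9, WT MLL-AF9, KO c-Kit+, WT c-Kit+), 457, 324.5, 113 and 119 in secondary granule cells, and 106, 86, 53 and 51 in late neutrophils.

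Between the ends of this series all 76 members lay past 1.3-fold lower in late than in primary granule cells, where 57.3%, 57.2%, 60.6% and 60.3% of all genes tested did (KO MLL-AF9, WT MLL-AF9, KO c-Kit+, WT c-Kit+). The median log2 ratio of the members was −2.46, −2.37, −3.66 and −3.64, against −0.61, −0.63, −0.96 and −0.95 over all genes. Other genes of ribosome production were also lower in late neutrophils. All 13 nucleolar assembly genes listed (such as Ncl, Fbl and Nop56) lay past 1.3-fold lower in the MLL-AF9 libraries, with list medians of −2.32 in KO and −3.17 in WT, and their medians were −3.98 in KO c-Kit+ and −3.93 in WT c-Kit+. The mitochondrial ribosomal proteins had medians of −1.98, −1.93, −3.06 and −3.06, and the other TOP mRNAs, such as Eef1a1 and Pabpc1, −2.04, −2.43, −2.97 and −3.11. Markers of primary granules stood at 3.32, 4.62, 3.84 and 2.37 UMIs per 10000 in late neutrophils, against 188, 156, 362 and 394 in primary granule cells, and at 3.67, 4.68, 3.60 and 2.75 in T or NK cells. Cells past the primary granule cut were left out of the late and the T or NK ranges. The contrast in these markers is therefore set by the cuts and does not measure free RNA. What part free RNA has in the ribosomal protein share of late cells was not tested. Abundant genes outside the module fill much of a maturing neutrophil's mRNA: the 50 highest by mean CPM held 33.3%, 32.5%, 54.9% and 54.7% of UMIs in secondary granule cells. These 50 are not a granule gene list. They hold Camp, Ngp, S100a8 and S100a9, but also Actb, Malat1, Eef1a1 and the ribosomal protein genes Fau and Rps3a1. Of the UMIs left without those 50 genes, members made 18.5%, 17.2%, 26.5% and 26.6% in primary granule cells, 10.2%, 9.28%, 7.79% and 7.65% in secondary granule cells and 4.03%, 4.28%, 4.28% and 4.10% in late neutrophils. With each cell thinned to 2000 UMIs the shares were 14.3%, 14.2%, 22.1% and 22.1% in primary granule cells, 6.42%, 5.83%, 3.11% and 3.12% in secondary granule cells and 2.68%, 2.88%, 2.003% and 1.89% in late neutrophils, with 24, 105, 455 and 407 shallower late cells left out.

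The members did not keep their proportions across these ranges. For each member the part of the ribosomal protein UMIs that it took was compared between the 8 ranges filled in all 4 libraries. The ratio of highest to lowest range, averaged over libraries, had a median of 1.64 over the 76 members and was over 2 in 17 of them. It was lowest for Rplp2 at 1.19 and highest for Rps9 (3.61), Rps27 (3.57), Rpl12 (3.33), Rps2 (3.04), Rps27a (2.91) and Rpl10a (2.90). These 6 were named for this spread, so their values are a description.

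Rps9 (ENSMUSG00000006333, chromosome 7, 3703993 to 3706897, plus strand), a 40S protein that binds early to 18S rRNA, took a larger part of the module in late neutrophils than in primary granule cells in all 4 libraries. Rps9 made 3.90% of the ribosomal protein UMIs of late neutrophils in KO MLL-AF9, 3.08% in WT MLL-AF9, 8.33% in KO c-Kit+ and 7.31% in WT c-Kit+, against 1.65%, 1.24%, 1.72% and 1.62% in primary granule cells. Its own level was still lower in late cells: 1083, 902, 1748 and 1489 CPM, against 2441, 1803, 3876 and 3631 CPM in primary granule cells. Its late to primary log2 ratio was −1.17, −0.999, −1.15 and −1.29. No 90-base stretch of its last 500 transcript bases occurs in another gene.

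Rps27 (ENSMUSG00000090733, chromosome 3, 90212522 to 90213651, minus strand), a zinc-binding 40S protein, had 2.85%, 3.20%, 1.29% and 1.48% of the module in late neutrophils, against 1.07%, 1.19%, 0.37% and 0.39% in primary granule cells. Rps27 had 792, 938, 271 and 301 CPM in late neutrophils, against 1582, 1738, 822 and 877 CPM in primary granule cells, in the order KO MLL-AF9, WT MLL-AF9, KO c-Kit+ and WT c-Kit+. Both leukaemia libraries lay above both c-Kit+ libraries in these 2 ranges. Of the 3′ stretches of Rps27, 59.1% occur in other genes, so its counts are uncertain too. Rps27a, made as a fusion with ubiquitin, had 3.50%, 2.92%, 5.91% and 6.33% of the module in late neutrophils, against 2.13%, 1.76%, 3.18% and 3.27% in primary granule cells. A share of 91.7% of its 3′ stretches occurs in other genes, so its counts are uncertain.

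Rpl12, Rpl10a and Rps2 went the other way. Rpl12, a 60S protein at the base of the stalk, made 0.49%, 0.52%, 0.34% and 0.29% of the module in late neutrophils, against 1.39%, 1.35%, 0.74% and 0.73% in primary granule cells. Its level was 136, 152, 71.7 and 58.6 CPM in late neutrophils, against 2056, 1960.3, 1655 and 1642 CPM in primary granule cells. Rpl10a, a 60S protein of the L1 stalk, made 0.18%, 0.21%, 0.32% and 0.28% in late neutrophils, against 0.67%, 0.53%, 0.79% and 0.76% in primary granule cells. Rps2, a 40S protein at the mRNA entry, made 0.94%, 0.80%, 1.35% and 1.13% in late neutrophils, against 1.52%, 1.48%, 3.06% and 2.81%. Rpl36a had late to primary log2 ratios of −4.00, −3.57, −4.73 and −4.96, Rpl10a −4.28, −3.64, −4.69 and −4.89, and Rpl12 −3.91, −3.68, −4.51 and −4.79, among the lowest of the module. The 40S part of the module was 49.1%, 47.6%, 51.9% and 51.8% in late neutrophils, against 46.9%, 45.2%, 48.4% and 48.7% in primary granule cells.

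**Figure D2:**
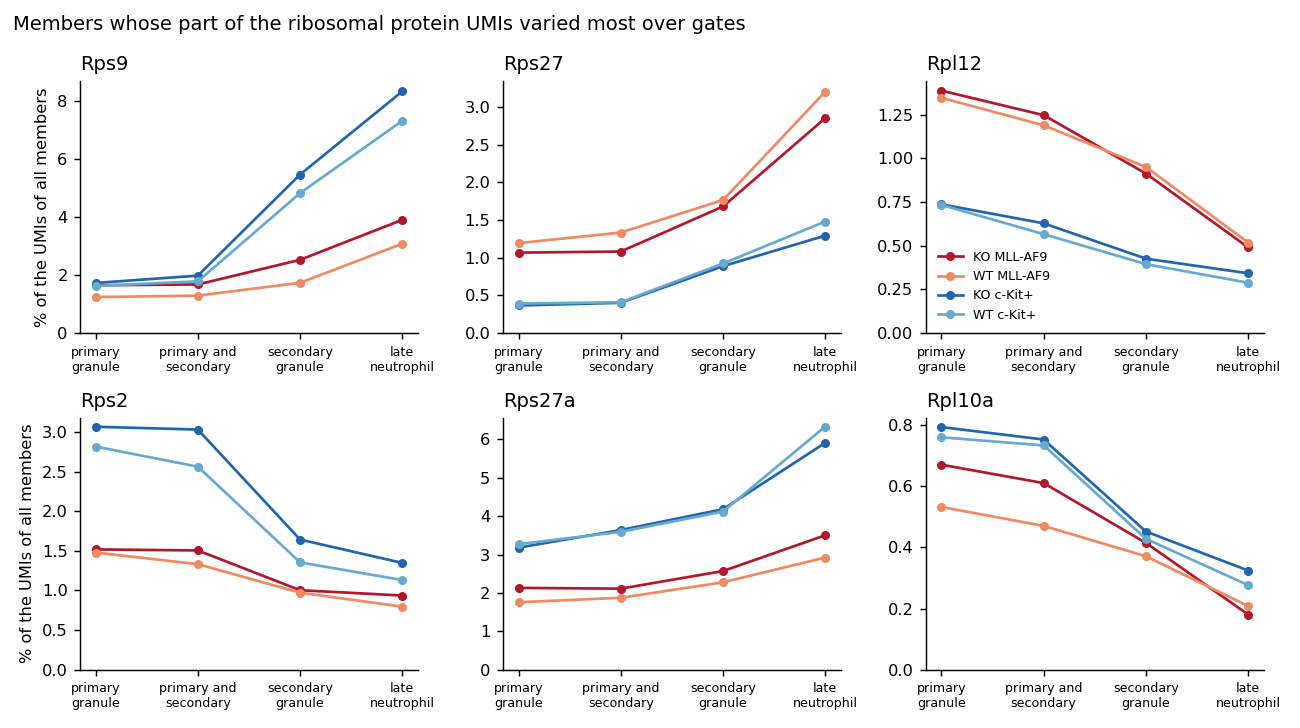
Part of the ribosomal protein UMIs taken by single members (percent, y axis) over 4 marker-defined ranges of neutrophil maturation (x axis), 1 line per library. Rps9, Rps27 and Rps27a take a larger part in late neutrophils than in primary granule cells in all 4 libraries, and Rpl12, Rpl10a and Rps2 a smaller part.

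Within primary granule cells, cycling cells (Mki67, Top2a and others) had a somewhat smaller share than non-cycling cells. The share was 13.3% in cycling and 15.5% in non-cycling cells of KO MLL-AF9, 13.9% and 15.1% in WT MLL-AF9, 22.2% and 22.9% in KO c-Kit+, and 22.04% and 22.9% in WT c-Kit+. Median UMIs per cell were higher in cycling cells, at 17136.5 against 11276 in KO MLL-AF9. Of the members, 3 in KO MLL-AF9 and 0 in each of the other libraries lay past 1.3-fold lower in cycling cells, where 17.1%, 11.6%, 7.71% and 13.4% of all genes tested did.

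Leukaemia and normal c-Kit+ cells differed in opposite directions at different maturities. In primary granule cells the ratio of WT MLL-AF9 to WT c-Kit+ was 0.650 (0.649 to 0.651), and that of KO MLL-AF9 to KO c-Kit+ was 0.660 (0.659 to 0.661). In monocytic cells (Csf1r, Ccr2, F13a1) the shares were 13.2% in WT MLL-AF9 and 19.8% in WT c-Kit+, and 11.9% in KO MLL-AF9 and 19.7% in KO c-Kit+. In the immature range (Kit, Cd34, Flt3 and others) the share was 13.1% in WT MLL-AF9 and 18.4% in WT c-Kit+; the KO MLL-AF9 library held 17 such cells and was not compared. In secondary granule cells the leukaemia share was the higher one, with a ratio of 1.81 in WT (1.80 to 1.81) and 1.95 in KO (1.94 to 1.95). Without the 50 most abundant other genes the log2 ratio there was 0.28 in WT in place of 0.85, and 0.39 in KO in place of 0.96. In late neutrophils the ratio was 1.44 in WT and 1.32 in KO. Without the 50 most abundant other genes the late log2 ratio was 0.06 in WT. In KO it was −0.09, the opposite direction. With the marker thresholds doubled the log2 ratio in secondary granule cells was 0.55 in WT and 0.73 in KO. For late neutrophils it was 0.40 and 0.12, in place of 0.52 and 0.40. For primary granule cells it was −0.48 in both, in place of −0.62 and −0.60. In T or NK cells, which are lymphoid, the share was 17.6% in WT MLL-AF9 and 15.6% in WT c-Kit+, and 18.01% in KO MLL-AF9 and 15.3% in KO c-Kit+.

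By member, the lower level in primary granule and monocytic cells of the leukaemia libraries was broad, within ranges not matched in marker level. In primary granule cells 43 of 76 members lay past 1.3-fold lower in WT MLL-AF9 than in WT c-Kit+ and 2 past it higher, against 18.7% lower and 48.8% higher of all genes tested. In KO the counts were 50 lower and 2 higher of 76, against 29.8% and 40.8% of all genes. In monocytic cells 51 of 76 members in WT and 62 of 76 in KO were past the fold lower, against 26.5% and 33.6% of all genes. In secondary granule cells 70 of 76 members in WT and 72 of 76 in KO were past it higher, against 65.5% and 51.3% of all genes tested. In late neutrophils 57 of 76 members in WT and 49 of 76 in KO were past it higher, against 61.1% and 48.9% of all genes. In T or NK cells 24 of 76 members in WT and 33 of 76 in KO were past it higher, against 34% and 27% of all genes. The WT count is thus near the background.

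Over whole libraries 19 of 76 members lay past 1.3-fold lower and 13 past it higher in WT MLL-AF9 than in WT c-Kit+. Of all genes tested, 16.7% were lower and 44.9% higher. The balance turned with the scaling: 7 were lower and 28 higher with cells thinned to 2000 UMIs, and 41 lower and 3 higher with median-ratio size factors. The median log2 ratio was −0.08 over members and 0.28 over all genes. In KO 42 of 76 members were past it lower and 2 higher, against 33.3% and 30.4% of all genes. The medians were −0.41 over members and −0.04 over all genes. The 22 members outside the naming rule had log2 ratios between −0.64 and 0.37 in WT and between −0.91 and −0.05 in KO.

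The members furthest above c-Kit+ in leukaemia were mostly small 40S proteins. Rps27 had 1582 CPM in WT MLL-AF9 and 722 in WT c-Kit+ (log2 ratio 1.13), and 1235 in KO MLL-AF9 and 737 in KO c-Kit+ (0.74). Rps29, a zinc-binding 40S protein of the head, had 3271 and 1717 CPM in the WT libraries (0.93), and 2486 and 1817 in the KO libraries (0.45), leukaemia first. For both genes the leukaemia libraries lay above the c-Kit+ libraries. Rps27 shares 59.1% of its 3′ stretches with other genes. Rps28 had 1692 CPM in WT MLL-AF9 and 1021 in WT c-Kit+ (0.73), and 1201 in KO MLL-AF9 and 1049.9 in KO c-Kit+ (0.19). Rpl31, at the tunnel exit, had 532 and 312 CPM in WT MLL-AF9 and WT c-Kit+ (0.77), and 403 and 381 in KO MLL-AF9 and KO c-Kit+ (0.08). Rps25 had 1173 and 713 CPM in WT MLL-AF9 and WT c-Kit+ (0.72), and 936 and 783 in the KO pair (0.26). Rps15, of the 40S head, had 1357 and 868 in the WT pair (0.64) and 1039 and 974 in the KO pair (0.09). In KO the highest ratios also included Rpl10 (0.16), which joins the 60S subunit late, and Rpl23a (0.11).

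The members furthest below c-Kit+ were Rps2, Rpl24, Rps27a, Rps9, Rpl41 and Rps20. Rps2 had 1402 CPM in WT MLL-AF9 and 3141 in WT c-Kit+ (log2 ratio −1.16), and 1249 in KO MLL-AF9 and 3689 in KO c-Kit+ (−1.56). Rpl24, a 60S protein of the bridge between the subunits, had 119 and 255 CPM in the WT pair (−1.09) and 164 and 261 in the KO pair (−0.67). Both lay lower in each leukaemia library than in each c-Kit+ library. Rps27a had 1958 and 3319 CPM in WT MLL-AF9 and WT c-Kit+ (−0.76), and 2009 and 3649 in KO MLL-AF9 and KO c-Kit+ (−0.86). Rps9 had 1585 and 2679.6 CPM in the WT pair (−0.76), and 1873 and 3056 in the KO pair (−0.71). Rpl41, the shortest member, had 1521 and 2526 CPM in the WT pair (−0.73), and 1059 and 2792 in the KO pair (−1.40). Rps20, a 40S head protein, had 1705 and 2820.0 CPM in the WT pair (−0.73) and 1345 and 2990.2 in the KO pair (−1.15). In KO the lowest 6 also held Rpl11 (−0.96), Rpl10a (−0.94) and Rplp1 (−0.93). Rps2, Rpl24, Rps27a and Rpl10a share 76.9%, 88.6%, 91.7% and 92.0% of their 3′ stretches with other genes, and Rpl24 overlaps Gm28037 on the same strand.

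Several of these differences were also present within primary granule cells, and some in T or NK cells. In primary granule cells Rps27 had a log2 ratio of MLL-AF9 to c-Kit+ of 0.99 in WT and 0.94 in KO, and in T or NK cells 0.92 and 0.49. Rps29 had 0.51 and 0.55 in primary granule cells and 0.58 and 0.38 in T or NK cells, WT first. Rps9 had −1.01 and −0.67 in primary granule cells and −0.71 and −0.45 in T or NK cells. Rps15, at 0.10 and −0.21 in primary granule cells, was at 1.07 and 1.004 in T or NK cells. For Rps2 the values were −1.55 and −1.61 in primary granule cells, and −0.49 and 0.11 in T or NK cells. Rpl24 had −1.88 and −1.11, and −0.16 and 0.39, in the same order. Rps27a had −1.52 and −1.18, and −0.42 and −0.27. Rps27, Rps29, Rps9 and Rps27a thus had the same sign in primary granule cells and in T or NK cells of the same libraries. The part of the libraries themselves in these values was not tested.

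Over the whole library the ribosomal protein share was lower in KO than in WT leukaemia, while within ranges of maturity it was lower in some and higher in others. The KO library held fewer primary granule cells (11.7% against 19.5% of cells in WT MLL-AF9) and more secondary granule cells (34.0% against 14.5%). Within ranges the KO to WT ratio of the share was 1.02 in primary granule cells, 1.12 in cells with both granule sets, 1.02 in cycling preneutrophils, 1.09 in secondary granule cells, 0.947 in late neutrophils, 0.903 in monocytic cells, 0.699 in erythroid cells and 1.03 in T or NK cells. The share was thus lower in KO in 3 of 8 ranges, and in 5 of 8 with the marker thresholds doubled. Over the cells of these 8 ranges the ratio was 0.807. With the KO shares weighted by the WT library's UMIs in each range it was 0.992. Cells in no range made up 16.7% of KO MLL-AF9 and 31.8% of WT MLL-AF9 cells and are outside that value. In these cells too the share was lower in KO, at 8.05% against 9.38% in WT MLL-AF9. What part the make-up of the libraries has in the difference was not tested.

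By member, 69 of 76 were below 0 in KO against WT leukaemia, 24 lay past 1.3-fold lower and 1 past it higher, where 50.4% lower and 13.2% higher of all genes tested did. The share of members past the fold is thus below the background. The median log2 ratio was −0.24 over members and −0.38 over all 9901 genes, so relative to that shift of all genes the members as a whole were higher, and with median-ratio scaling the direction of the summed share is the opposite one (log2 ratio 0.10 in place of −0.26). In primary granule cells the counts were 2 lower and 2 higher, against 40.7% and 13.5% of all genes, with a median of 0.06 over members and −0.26 over all genes. In erythroid cells 49 of 76 members were past it lower, against 55.8% of all genes.

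**Figure D3:**
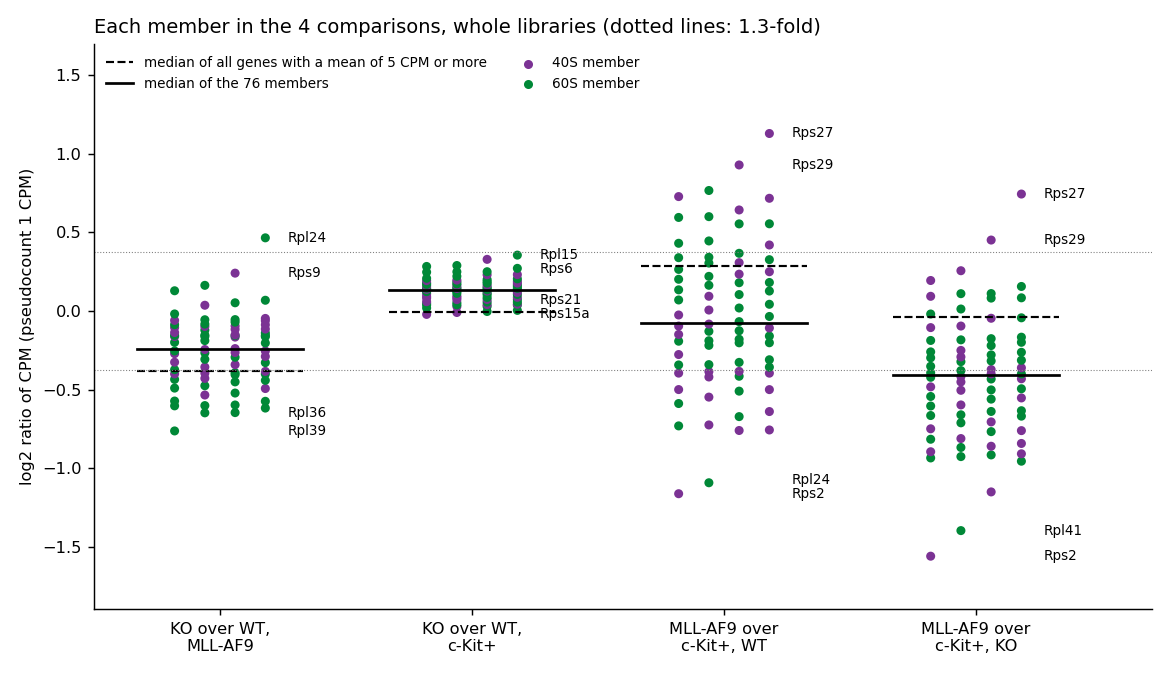
Log2 ratio (pseudocount of 1 CPM) of each of the 76 members in the 4 comparisons of whole libraries, 1 point per member. KO against WT spreads between −0.76 (Rpl39) and 0.47 (Rpl24) in MLL-AF9 and stays between −0.02 and 0.36 in c-Kit+ cells, and MLL-AF9 against c-Kit+ spreads between −1.16 (Rps2) and 1.13 (Rps27) in WT.

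The 6 lowest members in KO leukaemia were all 60S proteins with coding sequences under 462 bases, the median of the module. Rpl39 (ENSMUSG00000079641, chromosome X, 37082520 to 37085402, minus strand), which lines the exit tunnel, had 1538 CPM in KO MLL-AF9 and 2613 in WT MLL-AF9, a ratio of 0.589 (0.585 to 0.593), and 1727 and 1723 CPM in KO and WT c-Kit+. Rpl36 had 685 and 1074 CPM in KO and WT MLL-AF9 (0.638), Rpl27a had 658 and 1031 (0.638), and Rpl38, a small 60S protein linked to selective Hox mRNA translation in mouse, had 872 and 1325 (0.658). Rplp1, of the acidic stalk, had 1769 and 2689 CPM (0.658). Rpl36a had 581 and 892 CPM (0.651), with 84.0% of its 3′ stretches shared. In c-Kit+ cells these 6 had KO to WT log2 ratios between 0.00 and 0.22.

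The 6 members at the other end all had coding sequences over 462 bases. Rpl24 (ENSMUSG00000098274, chromosome 16, 55966275 to 55971435, plus strand) had 164 CPM in KO MLL-AF9 and 119 in WT MLL-AF9, a ratio of 1.38 (1.35 to 1.42), and was the only member past 1.3-fold higher. Rps9 had 1873 and 1585 CPM in KO and WT MLL-AF9 (1.18), Rpl29 680.0 and 607 (1.12), Rpl9 2222 and 2032 (1.09), Rpl7a 809.9 and 772 (1.05) and Rpl17 1098 and 1059 (1.04). Apart from these 6, Rps27a alone was above 0, at 0.04. The same genes had KO to WT log2 ratios of 0.69 for Rpl24, 0.44 for Rps9 and 0.32 for Rpl29 in primary granule cells. In T or NK cells of the same libraries they had 0.59, 0.28 and 0.55. At the low end Rpl39 had −0.40 in primary granule cells and −0.20 in T or NK cells, Rpl36 −0.34 and −0.17, Rpl27a −0.34 and −0.27, and Rpl38 −0.34 and −0.33.

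The members' ratios ran with coding length. Coding sequences of the members ran between 138 and 1257 bases, with a median of 462 (GENCODE M21). Spearman's rho of coding length with the KO to WT log2 ratio over the 76 members was 0.64 in MLL-AF9 libraries and 0.57 in c-Kit+ libraries. Within ranges of the MLL-AF9 libraries it was 0.58 in primary granule cells, 0.61 in secondary granule cells, 0.68 in late neutrophils, 0.75 in monocytic cells, 0.81 in erythroid cells and 0.73 in T or NK cells. These are correlations across genes that share libraries and are given as a description. The 25 shortest members had a median log2 ratio of −0.41, the 25 of middle length −0.16 and the 26 longest −0.12 in MLL-AF9. In T or NK cells of those libraries the medians were −0.13, 0.13 and 0.21, and in primary granule cells −0.14, 0.12 and 0.15. In c-Kit+ libraries they were 0.06, 0.13 and 0.18. For MLL-AF9 against c-Kit+ rho was −0.30 in WT and −0.12 in KO. Within ranges of the c-Kit+ libraries the KO to WT rho was 0.57 in primary granule cells, 0.48 in secondary granule cells, 0.42 in late neutrophils, 0.58 in monocytic cells, 0.23 in erythroid cells and 0.17 in T or NK cells. What part library preparation has in these values was not tested.

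**Figure D4:**
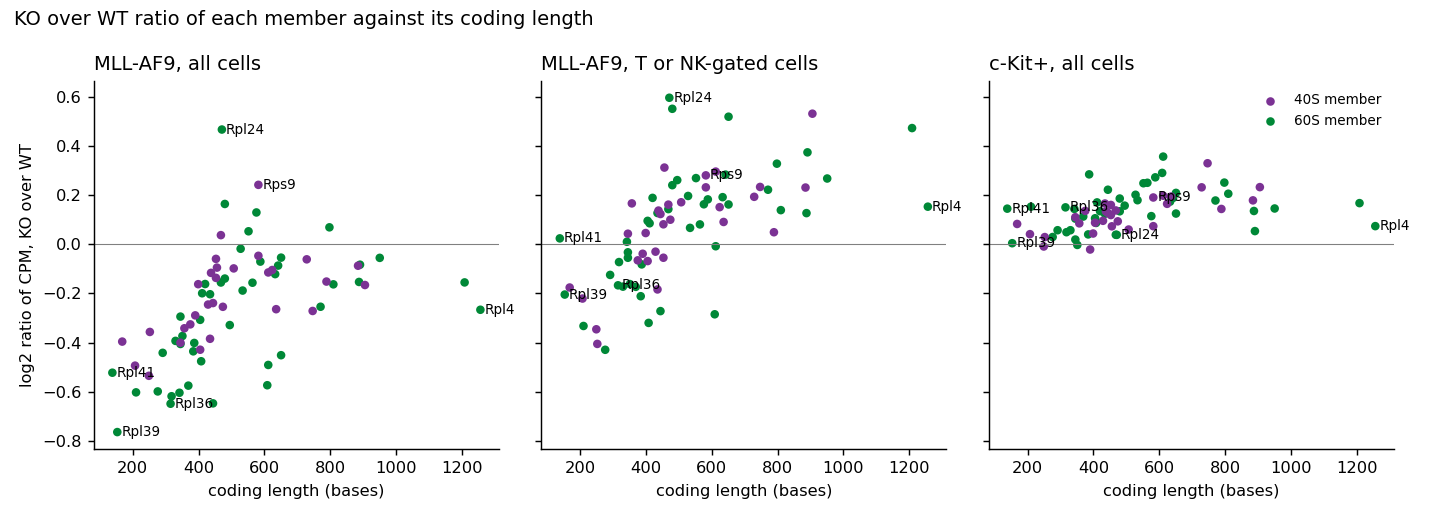
Coding length of each member (bases, x axis) against its KO to WT log2 ratio (y axis), 1 point per member, for all cells of the MLL-AF9 libraries, their T or NK cells, and all cells of the c-Kit+ libraries. Short members tend to lie lower than long members, with Spearman's rho of 0.64, 0.73 and 0.57 in that order.

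In normal c-Kit+ cells the KO and WT libraries differed little. Of the 76 members, 0 lay past 1.3-fold in either direction, where 0.774% lower and 1.03% higher of all genes tested did. As many as 73 members were above 0, with a median log2 ratio of 0.13 over members and −0.01 over all genes. The KO to WT ratio of the share within ranges was between 0.975 and 1.18. The share was lower in KO in 3 of 13 ranges (monocytic, plasmacytoid dendritic and T or NK cells). With the KO shares weighted by the WT library's UMIs in each of these 13 ranges the ratio was 1.02. The highest log2 ratios were 0.36 for Rpl15 (547 CPM in KO and 427 in WT), 0.33 for Rps6 (472 and 376), 0.29 for Rpl13a (187 and 152), 0.28 for Rpl31 (381 and 312), 0.27 for Rpl19 (2060.2 and 1707) and 0.25 for Rpl7a (1069 and 899). The lowest were −0.02 for Rps15a (2154 and 2187 CPM) and −0.01 for Rps21 (2124 and 2138), followed by Rpl34 (−0.0032) and by Rpl39, Rplp2 and Rps27, which lay between 0.00 and 0.03. The 22 members outside the naming rule lay between 0.03 and 0.20. Across both comparisons, 66 members were below 0 in MLL-AF9 and above 0 in c-Kit+, 7 were above 0 in both and 3 below 0 in both.

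Members with roles outside or at the edge of the ribosome had these levels. Of the stalk, which recruits elongation factors, Rplp0 had 1486 CPM in KO MLL-AF9, 1544 in WT MLL-AF9, 1506 in KO c-Kit+ and 1362 in WT c-Kit+, and Rplp2 had 1768, 2169, 2505 and 2473 CPM. Rplp0 thus varied little between libraries, while its partner Rplp1 had 1769, 2689, 3365 and 3047 CPM. Rpl5 and Rpl11 bind 5S rRNA and, when free, Mdm2, the negative regulator of p53. Rpl5 had 751, 795, 708 and 683 CPM, and Rpl11 had 1049.7, 1196, 2038 and 1800.3 CPM, so Rpl11 was lower in both leukaemia libraries and Rpl5 was not. Rps6, phosphorylated by the S6 kinases below mTORC1, had 385, 465, 472 and 376 CPM. Rpl22, an RNA-binding 60S protein needed for T cell development in mouse, had 940.1, 1272, 1656 and 1612 CPM. Rpsa, also known as the laminin receptor precursor, had 1495, 1588, 1921 and 1698 CPM. Rps3, at the mRNA entry channel, had 1559, 1627, 2058 and 1753 CPM. Of the 4 X-linked members, Rps4x had 1920.1, 2134, 3446 and 3121 CPM and Rpl10 had 1165, 1237, 1045 and 918 CPM.

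The 18 members that are Diamond-Blackfan anaemia genes in human, in which red cell production fails, were all below 0 in KO against WT leukaemia. Of these 9 lay past 1.3-fold lower and 0 past it higher, against 50.4% lower and 13.2% higher of all genes tested, so the count is at the background. The median log2 ratio of the list was −0.37, against −0.24 over all members and −0.38 over all genes tested. Rps19, the gene most often mutated in that disease, had 807 CPM in KO MLL-AF9 and 969 in WT MLL-AF9, and 1104 and 965 CPM in KO and WT c-Kit+. Rpl35 had 728 CPM in KO MLL-AF9 and 1086 in WT MLL-AF9 (ratio 0.671), the lowest ratio of the list. Rps7, the highest of the list, had 1161 CPM in KO MLL-AF9 and 1200.0 in WT MLL-AF9 (0.968). The list in WT MLL-AF9 against WT c-Kit+ had 5 members past the fold in each direction, against 16.7% lower and 44.9% higher of all genes, and a median of 0.18. In c-Kit+ cells all 18 were above 0, as were 73 of the 76 members, with 0 past the fold. Of all genes tested there, 0.774% were past it lower and 1.03% higher. By subunit, KO against WT leukaemia had a median of −0.20 and 6 of 30 past the fold lower for the 40S genes, and −0.26 and 18 of 46 for the 60S genes, both below the 50.4% of all genes.

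Of the 8 ranges compared, erythroid cells had the KO to WT ratio furthest from 1 in the leukaemia libraries, and the libraries differed in the haemoglobin content of these cells. The share was 9.41% in KO MLL-AF9 and 13.5% in WT MLL-AF9, and 20.2% in KO c-Kit+ and 19.5% in WT c-Kit+, over 226, 80, 1136 and 835 cells. Cells with haemoglobin genes at 50% or more of UMIs made up 113 of the 226 erythroid cells in KO MLL-AF9, and 22.5% in WT MLL-AF9, 5.28% in KO c-Kit+ and 5.87% in WT c-Kit+. To leave the haemoglobin out of the total, members were also taken as a share of non-haemoglobin UMIs in cells split by haemoglobin share (under 5%, 5 to 20%, 20 to 50%, and 50% or more). That share was 20.4%, 20.3%, 12.2% and 4.74% in KO MLL-AF9, and 19.8%, 19.1%, 9.02% and 5.67% in WT MLL-AF9. In KO c-Kit+ it was 23.1%, 19.8%, 7.54% and 3.18%, and in WT c-Kit+ 21.5%, 19.1%, 6.38% and 2.78%. The lowest and second bins were close in the leukaemia libraries, and the share was lower in the bins of 20% or more in all 4 libraries. The WT MLL-AF9 bins under 5%, of 5 to 20% and of 50% or more held only 13, 19 and 18 cells. The haemoglobin bins were set after the data were seen.

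**Figure D5:**
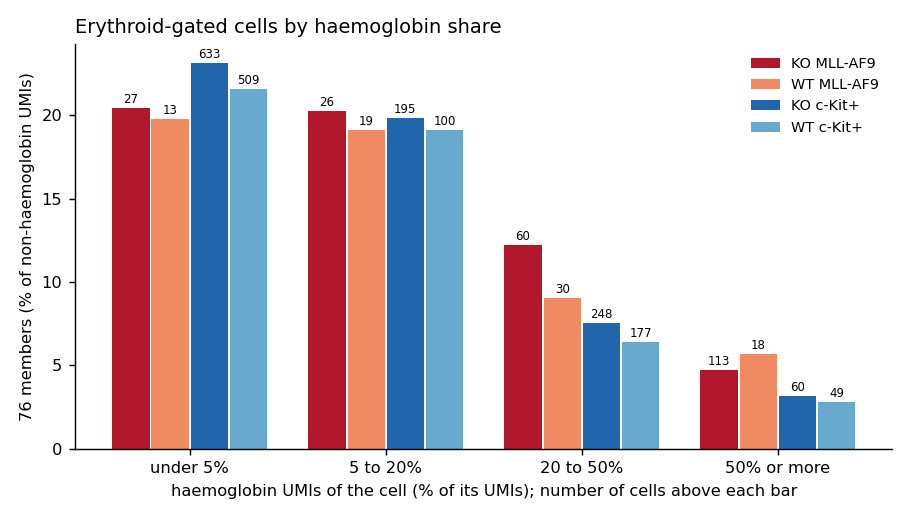
Share of non-haemoglobin UMIs from ribosomal protein genes (percent, y axis) in erythroid cells split by the share of haemoglobin UMIs (x axis), 1 bar per library and bin with its number of cells above it. The share is 19.8% to 23.1% in cells with under 5% haemoglobin and 2.78% to 5.67% in cells with 50% or more.

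Of the 5 lists of other genes tied to ribosome production, 4 had lower medians in KO against WT leukaemia than the members (−0.24), where all genes had −0.38. The counts past 1.3-fold that follow stand beside 50.4% lower and 13.2% higher over all genes tested. The 13 nucleolar assembly genes had a median log2 ratio of −0.50 with 11 past 1.3-fold lower, 9 RNA polymerase I genes −0.50 with 6, 11 TOP and mTORC1 regulators −0.51 with 7, and 74 mitochondrial ribosomal proteins −0.44 with 43. The 15 other TOP mRNAs had a higher median than the members, −0.12, with 2 lower and 1 higher. Larp1, which binds the TOP motif, had 51.2 CPM in KO MLL-AF9, 88.9 in WT MLL-AF9, 92.2 in KO c-Kit+ and 89.7 in WT c-Kit+. In WT MLL-AF9 against WT c-Kit+ the mitochondrial ribosomal proteins had a median of −0.46, with 45 of 75 past the fold lower and 3 higher, against 16.7% and 44.9% of all genes. In KO the median was −0.93, with 68 of 75 lower and 0 higher, against 33.3% and 30.4% of all genes. Npm1, a nucleolar chaperone and TOP mRNA, had 409, 527, 1141 and 1008 CPM in KO MLL-AF9, WT MLL-AF9, KO c-Kit+ and WT c-Kit+, while Tpt1, another TOP mRNA, had 4819.9, 4661, 2484 and 2477 CPM. In c-Kit+ cells 0 genes of these 5 lists lay past the fold between KO and WT. Of all genes tested there, 0.774% were past it lower and 1.03% higher, so the count is near the background.

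Ribosomal proteins with other symbols differed among themselves. Rps3a1 had 1806, 2007, 3579 and 3187 CPM (KO MLL-AF9, WT MLL-AF9, KO c-Kit+, WT c-Kit+), and Fau, made as a fusion with a ubiquitin-like protein, had 2968, 2995, 2855 and 2857. Rack1, a 40S scaffold protein, had 1004, 1243, 1012 and 912 CPM. Of the paralogs, Rps27l, a p53 target in human cells, had 155, 333, 461 and 445 CPM, with a KO to WT log2 ratio of −1.10 in MLL-AF9 libraries. Rps4l had 4.98, 37.8, 13.7 and 19.7 CPM, with a KO to WT log2 ratio of −2.70. Rpl36al had 152, 265, 264 and 233 CPM (−0.80), and Rpl22l1 had 404, 359, 546 and 475 CPM. The testis paralogs Rpl39l and Rpl10l had 13, 5, 30 and 47 UMIs and 0, 0, 1 and 0 UMIs.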

How the data were processed

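Single-cell RNA was counted in 4 libraries, 1 per group. The values the authors deposited are raw UMI counts, made with Cell Ranger 7.1.0 on mm10, per the submitters' processing notes, and the annotation is not given in the sources used here. Barcodes needed 500 genes, 1000 UMIs and no more than 10% mitochondrial UMIs, and doublets were kept (Scrublet in scanpy 1.11.5, expected rate 8%, called 3.09% to 4.46%). UMIs were summed per library or range and divided by their total to give CPM. Log2 ratios used a pseudocount of 1 CPM where a gene averaged at least 5 CPM, and 1.3-fold was the size named. Shares have exact Clopper-Pearson intervals and ratios exact conditional binomial intervals at 95%. Total counts were 101255178, 93004538, 101106754 and 93778544 UMIs in KO MLL-AF9, WT MLL-AF9, KO c-Kit+ and WT c-Kit+. No test was made.

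Ranges of cells used fixed marker lists. Their thresholds were set after the marker distributions had been seen. The members and all lists were chosen with earlier results of these data known. Members named were the 6 most abundant, the 6 highest and 6 lowest in each of the 4 comparisons, the 6 with the widest spread over ranges (8 ranges, mean of 4 libraries) and fixed role lists, 54 in all. Positions and coding lengths are from GENCODE M21 (GRCm38), promoters from RefSeq. The steps were run in Python 3.11.15 with numpy 2.4.6, scipy 1.17.1, pandas 2.3.3 and matplotlib 3.10.9, and the ratio and call code was tested on simulated data. Alternatives were cell filters, doublet removal, thinning, median-ratio scaling, removal of the 50 most abundant other genes, added pseudogenes, equal range weights, cell means, folds, pseudocounts and range thresholds.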

Additional observations from a re-analysis of the deposited data

Results flagged for a closer look

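The share of ribosomal protein UMIs had KO to WT log2 ratios of opposite sign, −0.26 in MLL-AF9 and 0.13 in c-Kit+ cells. The difference between them was not tested, since each group is 1 library.

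The ratio of MLL-AF9 to c-Kit+ had opposite signs in 2 maturation ranges. In WT the log2 ratio was −0.62 in primary granule cells and 0.85 in secondary granule cells. In KO it was −0.60 in primary granule cells and 0.96 in secondary granule cells. These differences were not tested either, and the ranges were not matched in marker level between leukaemia and c-Kit+ cells.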

How the results depend on the processing

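No paired analysis was possible because each group has 1 library and no result comes from a test. The log2 ratios of the summed share are given in the order KO to WT in MLL-AF9 (main value −0.257), KO to WT in c-Kit+ (0.127), MLL-AF9 to c-Kit+ in WT (−0.0957) and MLL-AF9 to c-Kit+ in KO (−0.480). They were −0.263, 0.126, −0.104 and −0.493 with no cell filter, −0.267, 0.130, −0.117 and −0.514 with a stricter one (1000 genes, 2000 UMIs, 5% mitochondrial), and −0.264, 0.124, −0.104 and −0.492 without Scrublet calls. Thinning cells to 2000 UMIs gave −0.316, 0.150, 0.163 and −0.303, so the WT comparison reversed. Median-ratio size factors gave 0.0964, 0.0974, −0.452 and −0.453, so KO to WT in MLL-AF9 reversed. Without the 50 most abundant other genes they were −0.118, 0.102, −0.342 and −0.562, with ranges weighted equally −0.0486, 0.0479, −0.219 and −0.292, and as means of cell shares −0.271, 0.149, 0.0935 and −0.326, the WT comparison reversing again. The late MLL-AF9 to c-Kit+ log2 ratio in KO reversed to −0.0875 without the 50 genes. Members past the fold, lower and higher, changed as follows. For KO to WT in MLL-AF9 (24 and 1) they were 1 and 7 with size factors, 11 and 2 without the 50 genes and 7 and 0 at 1.5-fold, with 4 lower at equal weights. For KO to WT in c-Kit+ 2 were higher with thinning and 5 at 1.2-fold. For MLL-AF9 to c-Kit+ in WT (19 and 13) they were 7 and 28 with thinning, 41 and 3 with size factors, 33 and 6 without the 50 genes and 9 and 8 at 1.5-fold, with 20 higher at 1.2-fold. In KO (42 and 2) they were 26 and 4 with thinning and 26 and 1 at 1.5-fold, with 27 lower at equal weights and 1 higher without the 50 genes. Ranges with a lower KO share numbered 5 in MLL-AF9 with doubled marker thresholds, and 5 in c-Kit+ with thinning and with means of cell shares. The other 132 values, which include the late to primary counts, stayed within 1.5 times the main count or, for a share, within its counting interval. The cause of each change was not tested. The settings for single genes and for shares within a range were chosen after seeing the data: the log2 ratios of Rpl24, Rpl39, Rps27 and Rps2 kept their direction under each.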
